A study of Homo sapiens with 9 samples.

Results

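Integrin subunits and laminin chains were taken from the count table by gene name: the 18 integrin alpha and 8 integrin beta subunit genes, and the 12 genes of the laminin alpha, beta and gamma chains, 38 of the 60642 gene names listed. Integrins are the cell's receptors for the extracellular matrix. Each is a pair of 1 alpha and 1 beta subunit, and the pair sets the ligand: some bind collagen, some laminin, some the short RGD peptide motif of fibronectin and vitronectin, and some serve leukocytes. Laminins are secreted trimers of 1 alpha, 1 beta and 1 gamma chain that assemble into basement membranes, where integrins and other receptors hold them. In the liver, laminin is scarce along normal sinusoids and accumulates in fibrosis and in hepatocellular carcinoma (HCC).

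The RNA came from SNU-398, an established HCC cell line, in 3 groups of 3 libraries. The vector control carries no added EMX1 and is labelled wild type, though it was transduced too. EMX1-FL cells overexpress the full-length form of EMX1, a homeodomain transcription factor, and EMX1-X1 cells overexpress an isoform that differs at the terminal exon. All 3 groups were transduced with lentivirus and selected with puromycin, so the controls went through the same selection. Whether the selected cells were kept as a pool or cloned is not stated. The labels number the libraries from 1 to 3 in each group without saying that they came from separate cultures, so p-values measure the spread between these libraries, which may be technical. Read pairs that overlap more than 1 gene were left uncounted, by the default of the counting program.

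The libraries held 21562703 to 25197970 counted read pairs. Levels are given as CPM, counts per 1000000 counted read pairs after TMM normalization, for 1 gene across libraries, and as TPM, which also corrects for gene length, between genes. EMX1 itself averaged 10.7 CPM in the vector control, 177 CPM in EMX1-FL and 242 CPM in EMX1-X1, with no overlap between the control and either overexpression group, and its difference between the overexpression groups was not past the test (log2 fold change -0.45, Benjamini-Hochberg adjusted p = 0.618 in the quasi-likelihood test of edgeR). The libraries also parted along the first principal component, which held 39.6% of the variance, into cluster A and cluster B. Cluster A was made of EMX1-X1 1, EMX1-FL 2 and 3 and controls 1 and 2, and cluster B of EMX1-X1 2 and 3, EMX1-FL 1 and control 3. The clusters came from the counts, are not conditions and cut across all 3 groups. EMX1 was higher in cluster B within both overexpression groups. EMX1-FL 1 was at 251 CPM, against 135 and 145 CPM in EMX1-FL 2 and 3. EMX1-X1 2 and 3 were at 294 and 288 CPM, against 145 CPM in EMX1-X1 1. Within clusters A and B, EMX1-FL minus EMX1-X1 was -0.05 and -0.21 on the log2(CPM + 0.5) scale. The part of EMX1 level in the other differences was not tested. Of 8 hepatocyte markers, ALB alone passed the filter on low counts, at 0.607 to 1.69 CPM on average per group, while AFP, TTR and FGB had 0 counts in every library, so the labelled cell type was not borne out by these markers. The paper places SNU-398 among mesenchymal-like HCC lines, apart from the hepatoblast-like lines it used. All 7 mesenchymal markers passed the filter, on unequal levels: on average per group VIM was at 1070 to 1330 CPM, FN1 at 168 to 256, ZEB2 at 150 to 203, TWIST1 at 157 to 222 and CDH2 at 13 to 19.3 CPM, while ZEB1 at 0.926 to 2.16 CPM and SPARC at 0.799 to 1.46 CPM were about as low as ALB. In bulk RNA, fewer cells of a type and less RNA per cell cannot be told apart.

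EMX1 belongs to the homeodomain proteins, whose DNA-binding domain is known for the core letters TAAT. Promoter sequences, 250 bases before to 50 bases after each start, were at hand from RefSeq (GRCh38.p14) for 26 of the 38 genes, as 33 promoters. TAAT, searched on both strands and so also as ATTA, was in 12 of these 33 promoters, and in 50.2% of all 35116 promoters of the same length. The longer palindrome TAATTA, each match of which also holds TAAT and ATTA, was in 0 of the 33 and in 4.84% of all promoters. The 4 promoters printed here belong to genes that the results turn on: ITGA2 and ITGB8, which passed the fold threshold, and ITGA1 and LAMB1, which were past p alone and hold the motif. ITGB3 also passed the fold threshold but is not among the 26 genes with a promoter at hand. Capitals mark TAAT. The ITGA1 and ITGA2 genes follow each other on the plus strand of chromosome 5, at chr5:52787916-52959209 and chr5:52989340-53094779.
ITGA2 promoter, chr5:52989102-52989401, plus strand: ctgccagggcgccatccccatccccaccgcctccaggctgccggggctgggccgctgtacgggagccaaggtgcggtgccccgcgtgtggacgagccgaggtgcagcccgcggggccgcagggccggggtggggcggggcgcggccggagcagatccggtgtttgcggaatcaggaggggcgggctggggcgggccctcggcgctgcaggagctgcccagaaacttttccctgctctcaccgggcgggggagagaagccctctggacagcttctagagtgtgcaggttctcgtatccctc
ITGB8 promoter, chr7:20330650-20330949, plus strand: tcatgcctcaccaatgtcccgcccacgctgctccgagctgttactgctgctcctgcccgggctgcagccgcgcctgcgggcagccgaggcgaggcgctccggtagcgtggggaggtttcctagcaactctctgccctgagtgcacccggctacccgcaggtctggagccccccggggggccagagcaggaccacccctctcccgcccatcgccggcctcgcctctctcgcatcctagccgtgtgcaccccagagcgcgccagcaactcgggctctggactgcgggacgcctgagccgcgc
ITGA1 promoter, chr5:52787666-52787965, plus strand: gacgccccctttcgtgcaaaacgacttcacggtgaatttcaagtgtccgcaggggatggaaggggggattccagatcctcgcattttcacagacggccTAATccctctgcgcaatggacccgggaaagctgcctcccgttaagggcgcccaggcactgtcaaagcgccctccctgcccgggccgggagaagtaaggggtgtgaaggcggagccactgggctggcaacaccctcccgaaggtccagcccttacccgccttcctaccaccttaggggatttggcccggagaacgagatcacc
LAMB1 promoter, chr7:108003112-108003411, minus strand: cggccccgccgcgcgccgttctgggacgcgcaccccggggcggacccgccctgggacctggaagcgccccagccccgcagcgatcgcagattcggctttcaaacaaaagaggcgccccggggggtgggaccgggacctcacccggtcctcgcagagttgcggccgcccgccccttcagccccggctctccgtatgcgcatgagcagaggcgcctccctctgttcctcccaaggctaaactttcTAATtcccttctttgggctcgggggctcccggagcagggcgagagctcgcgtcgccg
The ITGA2 and ITGB8 windows hold no TAAT, and the ITGA1 and LAMB1 windows hold 1 each. The ITGA4 window holds 0 as well. A match is a run of letters and not a bound site, and no match says only that these letters are not in this window.

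SNU-398 expressed a short list of integrins and laminins. Per length, ITGAV (alpha v, the RGD-binding partner of several beta subunits) was the highest alpha subunit, at 341 ± 107 TPM in the vector control, 462 ± 177 TPM in EMX1-FL and 352 ± 87.1 TPM in EMX1-X1 (SD, n = 3 each), and made up 72.9%, 74.2% and 70.2% of the summed alpha subunit TPM. ITGB1, the beta 1 subunit that pairs with most alpha subunits, was at 368 ± 97.4, 441 ± 139 and 395 ± 64.4 TPM, and made up 95.6%, 95.6% and 94.9% of the summed beta subunit TPM. The next alpha subunits were ITGA5, the fibronectin receptor subunit, at 38.7, 45.7 and 48.2 TPM, and ITGA6, a laminin-binding subunit, at 27.8, 32.4 and 28.5 TPM. ITGAV stood above ITGA5 in every library, while the 9 values of ITGA5 and of ITGA6 overlapped. After ITGB1 came ITGB5, which pairs with alpha v, at 7.14, 9.3 and 9.83 TPM, and ITGB4, the partner of alpha 6 in hemidesmosomes, at 7.56, 7.16 and 9.59 TPM, whose values also overlapped each other.

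Among laminins, LAMA2 led the alpha chains with 96.3 ± 18.5 TPM in the vector control, 126 ± 22 in EMX1-FL and 128 ± 16 in EMX1-X1, or 66.4%, 69.3% and 67.7% of the summed alpha chain TPM. LAMA1 was at 30.2, 32.9 and 32.9 TPM and LAMA5, the broadly expressed epithelial and endothelial alpha chain, at 17.3, 21.9 and 27.6 TPM. The beta chains were LAMB1, at 82.7 ± 7.7, 116 ± 5.78 and 104 ± 7.52 TPM, and LAMB2, at 71.1 ± 7.48, 68.9 ± 12.2 and 90.3 ± 20.4 TPM. LAMC1, the gamma chain of most laminins, was at 114 ± 4.89, 129 ± 18.4 and 145 ± 2.06 TPM, and LAMC3 at 10.6, 11.2 and 12.2 TPM. LAMA3 and LAMB3, chains of epithelial laminins, were nearly missing: LAMB3 had at most 1 count in any library and LAMA3 had 12 to 58.

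**Figure D1:**
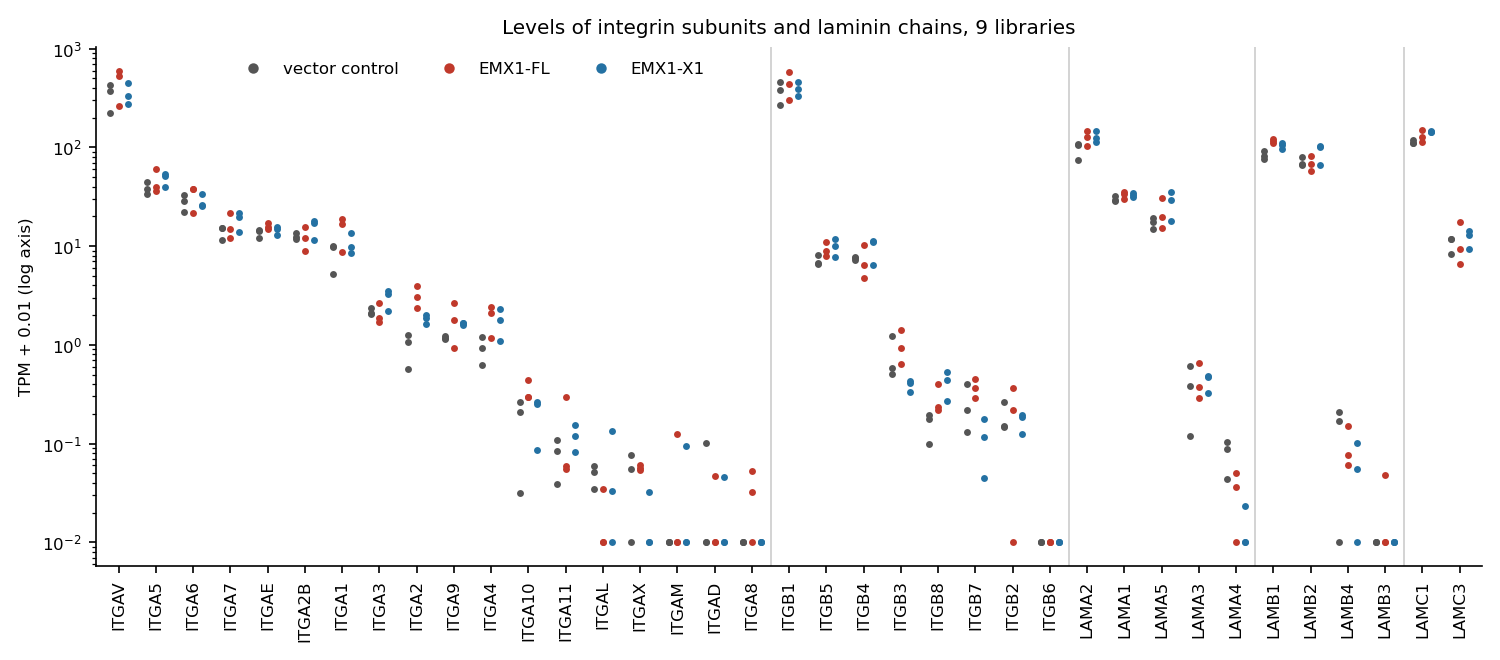
Levels of the integrin and laminin genes in each of the 9 libraries, as TPM + 0.01 on a log axis, with genes ordered by mean level within alpha subunits, beta subunits and laminin alpha, beta and gamma chains. ITGAV and ITGB1 stand above the other subunits of their class, and the genes at the right of each class, such as ITGA8, ITGB6 and LAMB3, sit at or near 0.

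Of the 38 genes, 25 passed the filter on low counts and were tested, 17 integrins and 8 laminins. The other 13, among them ITGA8, ITGA11, ITGB7 and LAMB4, were too low. ITGB6, the epithelial partner of alpha v, had 0 counts in all 9 libraries, and a count of 0 allows up to 3 counts per library, or 0.119 to 0.139 CPM, for counting error only. The leukocyte subunits ITGAD, ITGAL, ITGAM and ITGAX had at most 5 counts and their partner ITGB2 at most 15. Of 8 leukocyte markers, CD53 and LCP1 alone passed the filter, PTPRC had at most 4 counts in any library and CD68 had 0 in all. ITGAE, the alpha subunit of intraepithelial lymphocytes, was an exception at 25.4 to 27.9 CPM on average per group, and so was ITGA2B, the platelet alpha subunit, at 18.5 to 23.5 CPM, while the platelet markers PF4, PPBP, GP9 and GP1BB had at most 2 counts in any library. LAMA4 had 7, 6 and 3 counts in vector control 1 to 3, 3, 2 and 0 in EMX1-FL 1 to 3, and 0, 1 and 0 in EMX1-X1 1 to 3, and was too low to be tested.

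EMX1-FL was compared with the vector control to ask which receptors and matrix chains move with the full-length protein. The highest log2 fold change among the tested members was 1.62, for the collagen-binding alpha subunit ITGA2. Next came ITGA10, also collagen-binding, at 1.02 and ITGA4 at 0.97. ITGA10 rests on 1 to 17 counts per library and was not past the test. ITGA2, the alpha subunit of the collagen and laminin receptor alpha 2 beta 1, was 1 of the 25 tested members past the study's threshold of an unadjusted p under 0.05 at a log2 fold change of 1 or more in size, which 2.42% of all 18574 tested genes passed. At p under 0.05 without a fold limit, 4 of 25 members were past it, ITGA1, ITGA2, ITGA4 and LAMB1, all higher, against 5.80% of all genes. No member had an adjusted p under 0.05 in edgeR, which 0.0700% of all genes had. In DESeq2 1 member, ITGA2, had it, but the share of all genes was not taken there, so this call has no background. The EMX1-FL and vector control libraries did not overlap for 4 members, ITGA2, ITGA10, ITGB8 and LAMB1, and for 10.5% of all genes. For ITGA10, vector control 1 and EMX1-FL 3 tie at 10 counts, and only the scaling to library size parts them.

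ITGA2 was at 2.65, 2.31 and 1.36 CPM in vector control 1 to 3 and at 5.06, 6.4 and 7.99 CPM in EMX1-FL 1 to 3. These values rest on 33 to 62 counts and 114 to 173 counts. Every EMX1-FL library lay above every control library. The log2 fold change was 1.62 with a 95% interval of 0.98 to 2.26, a Benjamini-Hochberg adjusted p of 0.0679 in the quasi-likelihood test of edgeR, and the exact permutation test gave 0.1, the smallest p that 3 libraries against 3 allow. Over 17 other settings and left-out libraries its log2 fold change stayed between 1.07 and 1.81, the adjusted p ran from 0.000139 to 0.378, and it was under 0.05 in 5. Within cluster A the difference was 1.36 and within cluster B 1.58 on the log2(CPM + 0.5) scale. As a share of the summed alpha subunit TPM, ITGA2 went from 0.201% among control libraries to 0.515% among EMX1-FL libraries, so the subunit stayed a small part of the alpha subunit pool.

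ITGA1, the collagen IV-binding partner of beta 1 and the neighbour of ITGA2, was at 49.3, 51.6 and 29.3 CPM in vector control 1 to 3 and at 44.1, 82.9 and 90 CPM in EMX1-FL 1 to 3. EMX1-FL 2 and 3 were above all controls, while EMX1-FL 1 was below vector control 1 and 2. The log2 fold change was 0.74 (95% interval 0.08 to 1.4, adjusted p = 0.796 by edgeR). The unadjusted p of 0.0312 was lost without vector control 3, EMX1-FL 2 or EMX1-FL 3, where the log2 fold change was 0.51, 0.61 and 0.55 in turn. It was also over 0.05 with limma on log2(TPM + 1), limma on log2(TPM + 0.1) and the replicate block, at 0.0528, 0.0519 and 0.0524 by these models, so that 11 of 17 settings and left-out libraries kept it. The adjusted p was under 0.05 in 1 of the 17, the fit with the library cluster as a covariate (0.00676). Of the exon bases of ITGA1, 13.2% overlap other genes, PELO among them. ITGA10, another collagen-binding subunit, was near the limit of detection, with 1 to 10 counts in the control and 10 to 17 in EMX1-FL, and its log2 fold change of 1.02 had an interval of -0.53 to 2.57.

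ITGA4, whose product binds fibronectin and the endothelial ligand VCAM1 and is best known on lymphocytes, was at 2.61, 3.58 and 2.02 CPM in vector control 1 to 3 and at 3.37, 6.02 and 6.65 CPM in EMX1-FL 1 to 3. EMX1-FL 1 fell within the control range and the other two above it. The log2 fold change was 0.97 (95% interval 0.2 to 1.73, adjusted p = 0.653 by edgeR), and its unadjusted p went over 0.05 without vector control 3, EMX1-FL 2 or EMX1-FL 3, with log2 fold changes of 0.78, 0.85 and 0.78. Its close relative ITGA9 was at 2.78 CPM in the control and 3.88 CPM in EMX1-FL (log2 fold change 0.48, interval -0.23 to 1.19). Exons of CERKL overlap 14.8% of the exon bases of ITGA4. LCP1, a leukocyte marker with 2 to 5 counts in the control libraries, had 9 to 14 in the EMX1-FL libraries (log2 fold change 1.87, adjusted p = 0.566 by edgeR), and CD53 was not past p under 0.05. Their part in the ITGA4 difference was not tested.

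LAMB1, the beta 1 laminin chain, was the laminin past p under 0.05. It was at 177, 206 and 187 CPM in vector control 1 to 3 and at 242, 251 and 253 CPM in EMX1-FL 1 to 3. The groups did not overlap, and the EMX1-FL libraries lay closer to each other than the control libraries did. The log2 fold change was 0.39 (95% interval 0.08 to 0.7, adjusted p = 0.671 by edgeR), and it was 0.40 within cluster A and 0.37 within cluster B. Without vector control 1 it was 0.33, without EMX1-FL 2 it was 0.36 and without the filter on low counts it was 0.38, and in all 3 cases the unadjusted p went over 0.05. The other beta chain, LAMB2, went from 139 to 126 CPM on average and was not past the test (log2 fold change -0.14, interval -0.58 to 0.31), so that LAMB1 was 53.7% ± 3.75 of the summed beta chain TPM in the control and 62.8% ± 4.88 in EMX1-FL (SD, n = 3 each), with EMX1-FL 1 at 57.3% just under vector control 2 at 57.9%.

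The abundant subunits were not past the test in EMX1-FL. ITGAV was at 947, 862 and 559 CPM in vector control 1 to 3 and at 589, 1160 and 1270 CPM in EMX1-FL 1 to 3, a log2 fold change of 0.35 with an interval of -0.28 to 0.98. ITGB1 was at 743, 640 and 489 CPM and at 498, 710 and 900 CPM in the same libraries (0.17, interval -0.33 to 0.67). For both genes the lowest library of each group was the one in cluster B, and the groups overlapped. ITGAV was past an unadjusted p of 0.05 without EMX1-FL 1 (log2 fold change 0.62) and with the library cluster as a covariate (0.31). ITGA6 was at 59.9, 53.2 and 45.4 CPM in the control and 39.6, 67.6 and 65.8 CPM in EMX1-FL (0.13, interval -0.37 to 0.62). ITGA5 went the other way between the clusters, at 67, 77.5 and 102 CPM in vector control 1 to 3 and 122, 72.5 and 76.2 CPM in EMX1-FL 1 to 3 (0.14, interval -0.39 to 0.66). ITGB4 was at 13.8, 13.8 and 16.1 CPM and 19, 8.64 and 11.2 CPM (-0.17, interval -0.82 to 0.48), and ITGB5 at 11.6, 12.4 and 16.1 CPM and 19.8, 15.5 and 13.3 CPM (0.28, interval -0.22 to 0.78). All 4 of these genes overlapped between the groups.

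LAMA2 was at 305, 303 and 239 CPM in vector control 1 to 3 and at 292, 356 and 394 CPM in EMX1-FL 1 to 3, a log2 fold change of 0.30 with an interval of -0.08 to 0.68. LAMC1 was at 271, 263 and 287 CPM and at 259, 288 and 324 CPM (0.09, interval -0.23 to 0.4). Both groups overlapped for each gene. Of the tested members, 20 of 25 had a positive log2 fold change, 14 of 17 integrins and 6 of 8 laminins, where 56.3% of all tested genes did. The median was 0.25 for integrins and 0.15 for laminins, beside 0.04 for all tested genes, and the laminin median was -0.01 without EMX1-FL 1 and 0.24 without EMX1-FL 3. No test was made of these counts.

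**Figure D2:**
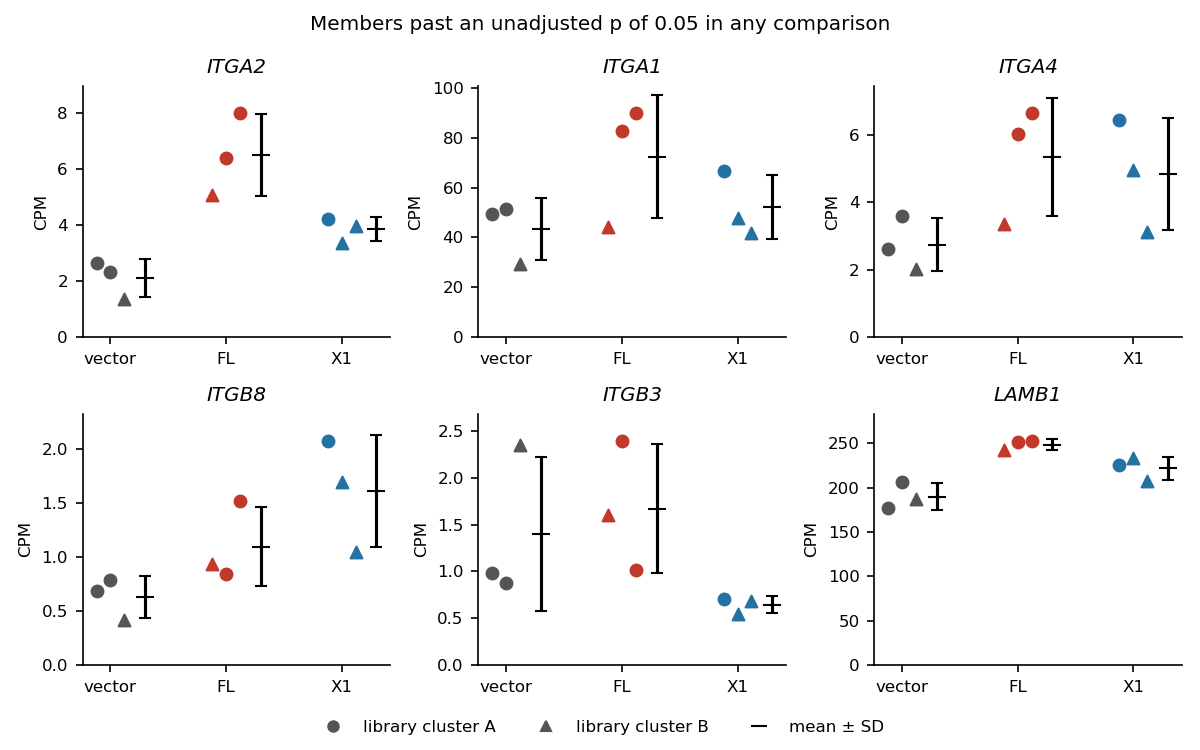
CPM in each library (points) with the mean ± SD of each group (bars) for the 6 members past an unadjusted p of 0.05 in any comparison; circles are libraries of cluster A and triangles of cluster B. ITGA2 and LAMB1 do not overlap between the vector control and either overexpression group, ITGB8 of EMX1-X1 lies above the control, and 1 vector control library of ITGB3 lies near the highest EMX1-FL library.

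EMX1-X1 was compared with the same vector control libraries, so that these values are not independent of those for EMX1-FL. The integrin beta subunits with low levels moved by the most: ITGB8 was higher and ITGB3 was lower, 2 of 25 tested members past the study's threshold, against 2.50% of all tested genes. At p under 0.05 without a fold limit there were 4 of 25, ITGA2, ITGA4 and ITGB8 higher and ITGB3 lower, against 8.11% of all genes. By adjusted p, 0 members were past 0.05 in edgeR and 0 in DESeq2, against 0.00538% of all genes in edgeR. The groups did not overlap for 7 members, ITGA2, ITGA9, ITGB8, LAMA2, LAMB1 and LAMC1 on the higher side and ITGB3 on the lower, and for 14.7% of all genes.

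ITGB8, which pairs with alpha v in an activator of latent TGF-beta, was at 0.685, 0.786 and 0.412 CPM in vector control 1 to 3, at 0.932, 0.842 and 1.52 CPM in EMX1-FL 1 to 3, and at 2.08, 1.7 and 1.05 CPM in EMX1-X1 1 to 3. The counts behind these values were 10 to 18, 20 to 33 and 26 to 50. Every overexpression library lay above every control library. For EMX1-X1 the log2 fold change was 1.36 (95% interval 0.41 to 2.3, adjusted p = 0.534 by edgeR), with an unadjusted p under 0.05 in all 17 other settings and left-out libraries, and for EMX1-FL it was 0.80 with an interval of -0.16 to 1.77. Its level of 0.401 TPM in EMX1-X1 was far below the 352 TPM of its partner ITGAV.

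ITGB3, another alpha v partner and the beta subunit of the platelet fibrinogen receptor, was at 0.985, 0.873 and 2.35 CPM in vector control 1 to 3 and at 0.707, 0.54 and 0.687 CPM in EMX1-X1 1 to 3, from 20 to 57 and 13 to 17 counts. The EMX1-X1 libraries lay together below all controls, and vector control 3 stood well above the others. The log2 fold change of -1.12 (95% interval -2.17 to -0.06, adjusted p = 0.596 by edgeR) was -0.54 without vector control 3. It lost its unadjusted p of 0.0399 in 7 of 17 settings and left-out libraries, among them the loss of EMX1-X1 1, 2 or 3, with log2 fold changes of -1.20, -1.01 and -1.18. Exons of AC068234.1 overlap 35.9% of the exon bases of ITGB3, and read pairs that overlap both genes are left out by the counting default.

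ITGA2 was at 4.2, 3.37 and 3.96 CPM in EMX1-X1 1 to 3, above all 3 control libraries. The log2 fold change was 0.87 (95% interval 0.23 to 1.5, adjusted p = 0.538 by edgeR), and without vector control 3 it was 0.61 with an unadjusted p over 0.05. ITGA4 was at 6.45, 4.95 and 3.11 CPM in EMX1-X1 1 to 3, with EMX1-X1 3 inside the control range. Its log2 fold change was 0.82 (95% interval 0.06 to 1.58, adjusted p = 0.584 by edgeR), and leaving out vector control 1 or 3 or EMX1-X1 1 or 2 gave 0.78, 0.63, 0.54 and 0.80, each with an unadjusted p over 0.05. The p was also over 0.05 with both limma fits and with the replicate block, and under it in 10 of 17 settings and left-out libraries. ITGA1 was at 66.6, 47.8 and 42 CPM, overlapping the control (0.26, interval -0.39 to 0.92).

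The abundant subunits were not past the test in EMX1-X1, and several intervals leave room for sizeable differences. ITGAV was at 973, 720 and 609 CPM (log2 fold change -0.04, interval -0.68 to 0.59) and ITGB1 at 735, 616 and 539 CPM (0.01, interval -0.48 to 0.51), both inside or close to the control range. ITGA6 was at 60, 46.3 and 46 CPM (-0.06, interval -0.55 to 0.44) and ITGA5 at 77.3, 99.4 and 107 CPM (0.21, interval -0.32 to 0.73). ITGB4 was at 11.6, 19.6 and 20.5 CPM (0.24, interval -0.41 to 0.89) and ITGB5 at 13.5, 20 and 17.5 CPM (0.35, interval -0.15 to 0.85). In each of these genes EMX1-X1 1, the library in cluster A, was the highest or the lowest of its group.

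All 8 tested laminin chains had a positive log2 fold change in EMX1-X1, from 0.02 to 0.57, and none was past p under 0.05. LAMA2 was at 399, 341 and 317 CPM in EMX1-X1 1 to 3, above the control libraries (0.32, interval -0.06 to 0.7). LAMC1 was at 320, 319 and 334 CPM, also above the control (0.25, interval -0.07 to 0.56), and LAMB1 was at 225, 233 and 207 CPM, with EMX1-X1 3 just above the highest control at 206 CPM (0.22, interval -0.08 to 0.53). LAMA5 had the highest log2 fold change of the laminins, 0.57 (interval -0.05 to 1.2), from 105 against 70.3 CPM, but EMX1-X1 1 at 68 CPM was inside the control range and the differences within clusters A and B were -0.09 and 0.89. Summed per kilobase over the 12 chains, laminin was at 120, 122 and 118 CPM per kilobase in vector control 1 to 3, 133, 131 and 141 in EMX1-FL 1 to 3, and 138, 149 and 143 in EMX1-X1 1 to 3. Each overexpression library was above each control library, as it was with library size alone or with TPM as the scale; no test was made of the sum. On the TPM scale the median of all genes itself was shifted by 0.11 (log2) in both comparisons with the control, against 0.04 and 0.01 with TMM. The summed integrins overlapped between all groups.

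Over both families, 21 of 25 tested members had a positive log2 fold change in EMX1-X1, 13 of 17 integrins and 8 of 8 laminins, and 51.1% of all tested genes did. The medians were 0.24 for integrins and 0.23 for laminins, beside 0.01 for all tested genes. With 1 library left out the integrin median ran from 0.09, without EMX1-X1 3, to 0.32, without EMX1-X1 1. After an offset for GC content, an alternative chosen after seeing the data, the laminin median was 0.09.

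**Figure D3:**
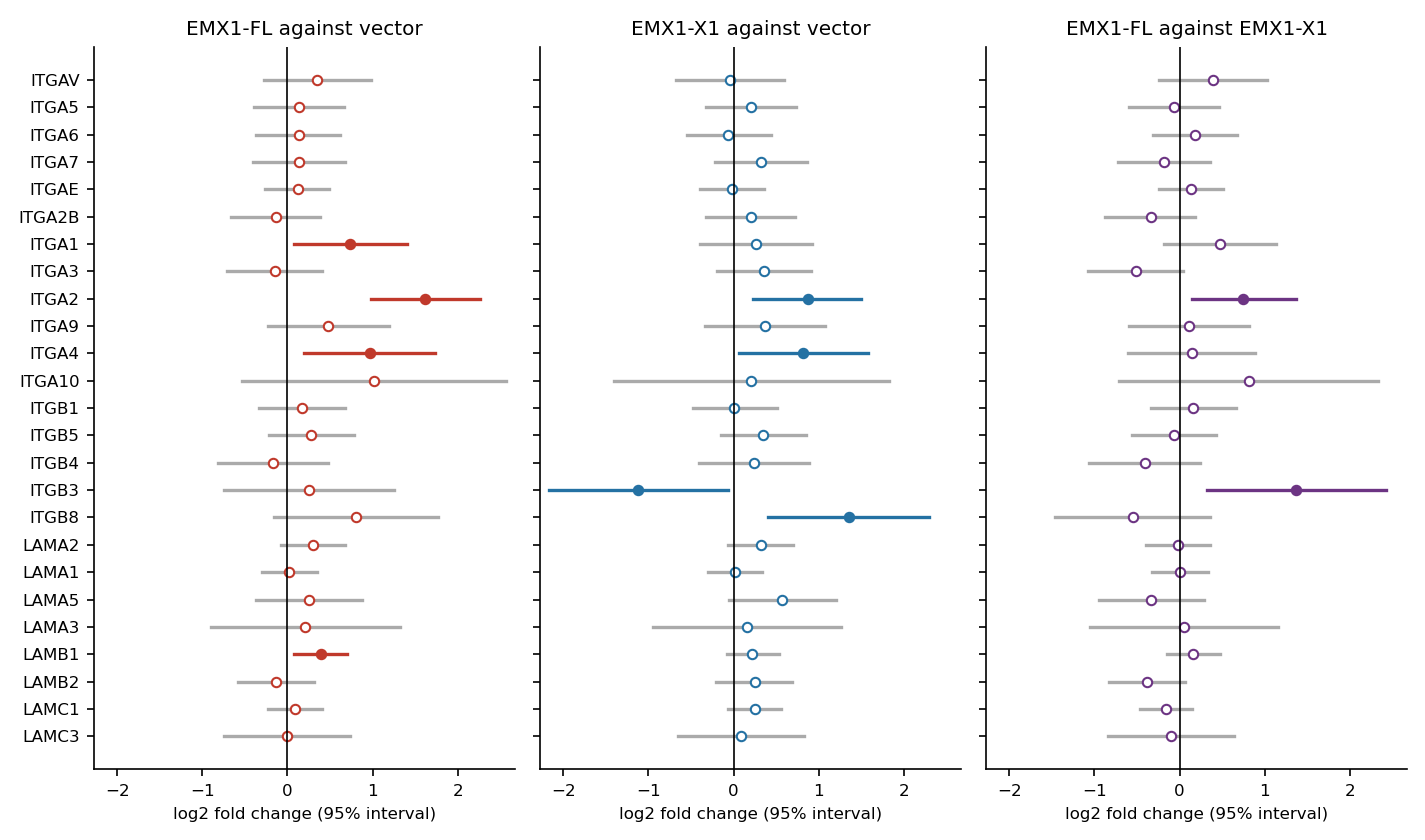
Log2 fold change (points) with its 95% interval (lines) for the 25 tested members, EMX1-FL against vector control on the left, EMX1-X1 against vector control in the middle and EMX1-FL against EMX1-X1 on the right; filled points and coloured lines mark an unadjusted p under 0.05. ITGA2 is filled in all 3 panels, and most intervals of the other members hold 0.

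The isoforms were compared directly to ask where they differ. By the study's threshold 1 of 25 tested members differed, ITGB3, against 1.42% of all genes, and by p under 0.05 alone 2 differed, ITGA2 and ITGB3, both higher in EMX1-FL, against 7.63% of all genes. By adjusted p, edgeR and DESeq2 gave 0 of 25 members, and edgeR gave 0% of all genes. The groups did not overlap for 4 members, ITGA2, ITGA10, ITGB3 and LAMB1, all higher in EMX1-FL, and for 8.38% of all genes. For ITGA10 this rests on 10 to 17 counts in EMX1-FL and 3 to 10 in EMX1-X1, where the scaling to library size alone parts a tie at 10 counts. For ITGA2 the log2 fold change of EMX1-FL over EMX1-X1 was 0.75 (95% interval 0.14 to 1.37, adjusted p = 0.611 by edgeR), and it was 0.57 without EMX1-FL 3, 0.67 without EMX1-X1 2 and 0.70 with limma on log2(TPM + 0.1), with an unadjusted p over 0.05 in all 3. ITGB3 was at 1.6, 2.4 and 1.02 CPM in EMX1-FL 1 to 3, each above the highest EMX1-X1 library at 0.707 CPM (log2 fold change 1.37, interval 0.32 to 2.42, adjusted p = 0.611 by edgeR). Without EMX1-FL 2 it was 1.00 and no longer past an unadjusted p of 0.05.

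The other 23 members were not shown to differ between the isoforms. For LAMB1 the log2 fold change was 0.16 with an interval of -0.15 to 0.47, for ITGB8 -0.55 with -1.46 to 0.36, and for ITGA4 0.15 with -0.6 to 0.89. ITGAV (0.39, interval -0.24 to 1.03) and ITGB1 (0.16, interval -0.34 to 0.66) overlapped between the isoforms. The median was 0.13 for integrins and -0.06 for laminins, beside 0.02 for all tested genes. With 1 library left out the integrin median ran from 0.06, without EMX1-FL 3, to 0.29, without EMX1-X1 1, and without EMX1-FL 1 it was 0.27. Of the tested members, 13 of 25 had a positive log2 fold change, and 52.0% of all genes did.

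Many of these genes differed between the library clusters along with their base composition, much as genes of the whole series did. The clusters were cut on the first principal component of the same counts. That genes part between them therefore follows from how they were made. Over the 25 tested members, the mean difference of cluster A minus cluster B in log2(CPM + 0.5) had a Pearson r of -0.9 and a Spearman rho of -0.88 with the GC content of the longest transcript. The points share the same 9 libraries, and over 17752 tested genes the same coefficients were -0.81 and -0.82. AT-rich genes were higher in cluster A: ITGAV (38.3% GC) averaged 1040 CPM there and 619 CPM in cluster B, and ITGA1 (38.8% GC) 68.1 and 40.8 CPM. GC-rich genes were lower: ITGB4 (63.7% GC) averaged 11.8 and 18.8 CPM and LAMC3 (64.3% GC) 18.3 and 29.3 CPM. The most AT-rich tested member, ITGB8 (37.8% GC), averaged 1.18 CPM in cluster A and 1.02 CPM in cluster B, and overlapped. ITGA2 (40.2% GC) and ITGA4 (44.1% GC) overlapped between the clusters too. The clusters did not overlap for 9 of the 25 members, ITGAV, ITGA1, ITGB1, ITGA6, ITGB5, ITGA5, ITGA2B, ITGB4 and LAMC3, and for 6007 of the 17752 genes. LAMB1, LAMC1 and LAMA1, at 48.7% to 50.5% GC, differed by -0.03 to 0.03 between the clusters. Cluster A held 2 of 3 vector control libraries, 2 of 3 EMX1-FL libraries and 1 of 3 EMX1-X1 libraries, and the part of base composition in each group difference was not tested beyond the values given within clusters and with the GC offset.

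**Figure D4:**
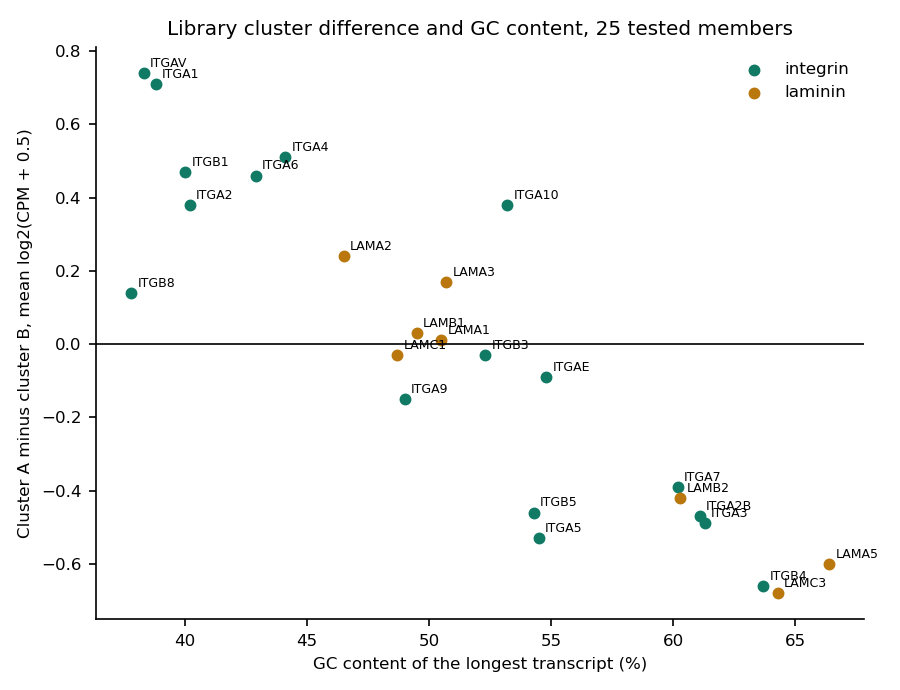
Mean log2(CPM + 0.5) of cluster A minus that of cluster B for the 25 tested members (vertical axis) against the GC content of the longest transcript in percent (horizontal axis), integrins in green and laminins in brown. AT-rich ITGAV and ITGA1 lie at the top left, GC-rich ITGB4 and LAMC3 at the bottom right, and LAMB1, LAMC1 and LAMA1 near 0.

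The ligands and partners of these receptors moved as follows, on lists that were chosen with earlier results of these data known. Of 15 other integrin ligands, 8 were tested, and CCN1, CCN2, FN1, TNC and THBS1 were higher at an unadjusted p under 0.05 in both EMX1-FL and EMX1-X1 (5 of 8 each, where 3.97% and 5.95% of all genes were higher by this rule). The list medians were 0.68 and 0.57. FN1, fibronectin, was at 169, 161 and 175 CPM in vector control 1 to 3, 227, 262 and 277 CPM in EMX1-FL and 254, 243 and 242 CPM in EMX1-X1, with log2 fold changes of 0.60 and 0.55 (adjusted p = 0.216 and 0.433 by edgeR). CCN2, a matricellular ligand of alpha v integrins, was at 6.47, 6.11 and 5.07 CPM in the control, 10.5, 17.5 and 14.9 CPM in EMX1-FL and 8.7, 11.3 and 13.2 CPM in EMX1-X1, and TNC, tenascin C, had log2 fold changes of 1.37 and 1.57. Neither FN1 nor CCN2 overlapped between the control and an overexpression group.

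Of 9 tested basement membrane partners of laminin, 3 were higher at an unadjusted p under 0.05 in EMX1-FL, COL4A1, COL4A2 and COL4A5. In EMX1-X1 4 of 9 were higher, COL4A1, COL4A2, HSPG2 and AGRN. By this rule 3.97% and 5.95% of all genes were higher. None of the 9 was lower by it, and the medians were 0.43 and 0.28, beside 0.04 and 0.01 for all genes. This list, too, was chosen with earlier results of these data known. COL4A2, a collagen IV chain, had log2 fold changes of 0.97 and 1.10 (adjusted p = 0.615 and 0.494 by edgeR), from 13.2 to 25.9 and 28.4 CPM. NID1, the nidogen that links laminin to collagen IV, had log2 fold changes of -0.23 and -0.16 and was not past the test in either group. Among 11 other laminin receptors and tetraspanins, SDC1 and SDC2 were higher in both groups by the same rule, and SDC3 and CD82 in EMX1-X1. That made 2 of 11 and 4 of 11, against the same 3.97% and 5.95% of all genes, with medians of 0.18 and 0.17. SDC2, a heparan sulphate proteoglycan of the membrane, was at 7.58, 6.76 and 6.35 CPM in the control, 13.1, 19.8 and 23.2 CPM in EMX1-FL and 18.7, 14.5 and 13.7 CPM in EMX1-X1. Its log2 fold changes were 1.44 and 1.18 (adjusted p = 0.0627 and 0.31 by edgeR), and both overexpression groups lay above the control.

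The cytoplasmic adhesion complex couples integrins to actin. Of its 30 tested genes, 2 were higher at an unadjusted p under 0.05 in EMX1-FL (NEDD9, TNS3) and 3 in EMX1-X1 (ZYX, BCAR1, FLNA), shares near the 3.97% and 5.95% of all genes given above. Positive log2 fold changes were found in 17 of 30 genes in EMX1-FL and 23 of 30 in EMX1-X1, where 56.3% and 51.1% of all genes had one, and the medians were 0.04 and 0.21 beside 0.04 and 0.01 for all genes. Talin (TLN1, -0.14 and 0.11), vinculin (VCL, 0.30 and 0.29), focal adhesion kinase (PTK2, -0.07 and -0.19) and kindlin-2 (FERMT2, 0.06 and -0.03) were not past the test in EMX1-FL or EMX1-X1. ILK, the integrin-linked kinase, was counted at 1.02 to 1.91 CPM on average per group, and 78.5% of its exon bases overlap other genes such as TAF10, so its count does not stand for its level.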

How the data were processed

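SNU-398 RNA was sequenced in 3 labelled groups of 3 libraries. The count table that the authors deposited holds unnormalized counts of read pairs for each gene name. Per the file headers these counts were made with featureCounts 2.0.1 on the exons of Ensembl release 99 (GRCh38), after trimming with fastp and alignment with STAR; the submitters' processing notes list featureCounts 2.0.6 and bcl2fastq 2.1.7, and RSEM is named in the paper's methods. A second table deposited by the authors is on the log2 scale, as log2(TPM + 1), and the counts with the listed gene lengths gave it back to within rounding. TPM levels come from that table. The counts behind a gene set its precision.

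Members were found by gene name in the count table; the results of 1 member are not reported here. The members and gene lists were chosen with earlier results of these data known. Values in every library are given for members past an unadjusted p of 0.05 in any comparison and for the 3 highest alpha subunits, beta subunits and laminin chains by TPM. Other genes named are core adhesion genes and listed genes past a threshold; COL4A5, AGRN, HSPG2, SDC1, SDC3, NEDD9, TNS3, ZYX, BCAR1, FLNA, THBS1, ITGA10, ITGA9, LAMB2, LAMA4, LAMA5, the sum over laminins and the cell markers were described after their values were seen.

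The test of the counts used edgeR 4.0.16 in R 4.3.3: filterByExpr by group left 18574 genes, with TMM factors, 1 quasi-likelihood fit of all 9 libraries with group as its term (6 residual degrees of freedom) and Benjamini-Hochberg adjustment over all genes in each of 3 comparisons. CPM use TMM-normalized library sizes. The pairing of libraries by replicate number was checked by correlating their residuals. For single members a two-sided exact permutation test of log2 CPM was run. Alternatives were DESeq2 1.42.0, RLE factors, limma 3.58.1 with TPM pseudocounts of 1 or 0.1 before the log2, library size alone, other filters (none, or at least 10 counts in every library), only the 6 libraries compared, a replicate block, the library cluster as a covariate and each library left out in turn (9 fits). An offset for GC content (GENCODE 29 transcripts, loess span 0.3) was added after seeing the data. In simulated data over 18574 genes for EMX1-FL against the control, the study's threshold was passed by 1.25% of unchanged genes. It was passed by 50% of genes changed by 1 (log2) and by 100% of genes changed by 2. The threshold's own fold limit is 1 (log2). Whether these shares hold for members with low counts, such as ITGB8 and ITGB3, or with the library clusters present was not tested. Promoters came from RefSeq. Figures and tables used Python 3.11.15, pandas 2.3.3 and matplotlib 3.10.9.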

Additional observations from a re-analysis of the deposited data

Results flagged for a closer look

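For 2 members the difference between the isoforms themselves was past an unadjusted p of 0.05, and neither had an adjusted p under 0.05 by edgeR with Benjamini-Hochberg adjustment (0.611 for both). ITGA2 was higher in EMX1-FL than in EMX1-X1 by a log2 fold change of 0.75. ITGB3 was higher in EMX1-FL than in EMX1-X1 by 1.37.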

How the results depend on the processing

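Across 17 other settings and left-out libraries, ITGA2 kept an unadjusted p under 0.05 in EMX1-FL and ITGB8 in EMX1-X1 in all 17. Members past the study's threshold in EMX1-FL numbered 2 with the replicate block (2.07% of all genes) and 4 on p alone (5.80%), and 1 to 2 with a library left out (2 without vector control 2 or EMX1-FL 1, with 2.30% and 3.52% of all genes). Members with an adjusted p under 0.05 in EMX1-FL numbered 1 with DESeq2, 1 without a filter, 1 with the GC offset, 2 with the library cluster as a covariate, and 0 to 1 with a library left out. The share of all genes past this adjusted p was taken in the main fit alone (0.0700%). Whether these counts exceed the share of all genes in their own setting was not tested. In EMX1-X1 the members past the threshold numbered 0 with limma on log2(TPM + 1) (0.953% of all genes), 1 on log2(TPM + 0.1) (2.71%), 1 with the replicate block (2.19%), 4 with the cluster as a covariate (2.12%), 4 on p alone (8.11%), and 1 to 3 with a library left out (1 without vector control 3, EMX1-X1 1 or EMX1-X1 2, with 2.91%, 4.72% and 1.62% of all genes). Between the isoforms they numbered 0 with limma on log2(TPM + 1) (0.576% of all genes), 2 on p alone (7.63%), and 0 to 2 with a library left out (0 without EMX1-FL 2, with 1.08%, and 2 without EMX1-FL 3 or EMX1-X1 3, with 1.67% and 0.735%). With the GC offset the laminin median was 0.09 in EMX1-X1 and 0.08 between the isoforms; with a library left out it ran from -0.01 to 0.24 in EMX1-FL and from -0.22 to -0.01 between the isoforms. The causes were not tested.

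Signs turned for members whose intervals held 0. For EMX1-X1 against the control, ITGB1 was -0.0017 with RLE factors, -0.0017 with DESeq2 and -0.01 with at least 10 counts in every library; ITGA6 was 0.04 with either limma fit, 0.1 with the cluster and 0.02 with the GC offset; ITGAV was 0.07, 0.23 and 0.11 in that order; and ITGB4 was -0.02 with the cluster and -0.16 with the GC offset. Between the isoforms the cluster gave -0.11 for ITGA4, 0.09 for ITGA5, -0.04 for ITGB1 and 0.08 for ITGB5, and the GC offset 0.06 for ITGA5, -0.1 for ITGB1 and 0.07 for ITGB5. With a library left out, EMX1-FL values ran from -0.14 to 0.31 for ITGA5, -0.02 to 0.34 for ITGA6, -0.13 to 0.83 for ITGB3, -0.56 to 0.02 for ITGB4, -0.05 to 0.37 for ITGB1 and -0.0034 to 0.16 for LAMC1. EMX1-X1 values ran from -0.21 to 0.03 for ITGA6, -0.27 to 0.1 for ITGAV and -0.15 to 0.15 for ITGB1. Values between the isoforms ran from -0.12 to 0.1 for LAMA2, -0.33 to 0.06 for ITGA5, -0.09 to 0.42 for ITGA4, -0.06 to 0.37 for ITGB1 and -0.22 to 0.06 for ITGB5.

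Residuals of libraries with the same replicate number had a mean correlation of -0.126, against 0.06 for different numbers. The sign followed library cluster in every pair, as in -0.522 for EMX1-FL 1 with EMX1-X1 1 and 0.455 for EMX1-FL 2 with EMX1-X1 1. These means therefore cannot decide whether libraries of equal number were prepared together. With the replicate block 2 members (ITGA2, ITGA4) were past the threshold in EMX1-FL and 1 (ITGB8) in EMX1-X1. Depth limits ITGB8, ITGB3, ITGA10 and LAMA3, with under 60 counts in every library, and the 13 members that were not tested.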
